A study of Mus musculus with 4 samples.

Results

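The genes described here are the 5 NF-κB subunits (Nfkb1, Nfkb2, Rela, Relb and Rel), the feedback genes Nfkbia and Tnfaip3, and the cytokine genes Il1b and Tnf. These 9 genes were listed by symbol, with earlier results of these data known, and matched to Ensembl identifiers among the 26328 genes listed in at least 1 of the 4 hippocampal samples. All 9 were listed in at least 1 sample, and 7 passed the filter for testing, at least 0.5 RPKM in at least 2 samples. RPKM is the number of reads on a gene scaled to its exon length and to the mapped reads of the sample. RNA-seq was performed on poly(A) RNA from the whole hippocampus of male C57BL/6 mice, in 2 wild-type (WT) and 2 Lsd1 KI samples. Whether the samples of a group came from different mice is not given in the sources used here. In the KI mice a serine of LSD1, a histone demethylase encoded by Kdm1a, is replaced by alanine in all cells, so that the site phosphorylated by PKCα is lost. The mice of both groups were littermates with no stated treatment, and an age of 8 to 15 weeks was given for the behavioural cohort, not separately for the RNA samples.

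Depth, worked out from the whole-read steps of the RPKM values, was about 13410000 reads in WT 1, 8830000 in WT 2, 14380000 in KI 1 and 14950000 in KI 2. Whether the unit counted was a read or a read pair is not given in the sources used here. Mean Kdm1a RPKM was 11.4 ± 0.320 for WT and 11.1 ± 0.143 for KI (SD, n = 2 each), and a point mutation leaves its level uninformative on the labels. The 5 neuronal markers summed to 939 to 966 RPKM per sample. The 5 hippocampal markers summed to 227 and 226 RPKM in WT and to 207 and 220 RPKM in KI. Both KI samples were below both WT samples for 2 of the 5, beside 18.1% of all genes tested, and above for 0. These were Prox1 (17.3 and 16.9 RPKM in WT, 10.2 and 13.1 in KI) and C1ql2 (41.8 and 44.0 in WT, 30.7 and 34.2 in KI). The blood leukocyte markers Cd3e and Ly6g were listed in no sample, and their list of 5 summed to at most 0.783 RPKM.

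NF-κB is a family of transcription factors that act as dimers. In the canonical route, dimers of RELA or c-REL with p50, the product of Nfkb1, are held in the cytoplasm by IκBα (Nfkbia) until the IKK complex marks IκBα for degradation. In the non-canonical route, the kinase NIK drives processing of the Nfkb2 product p100 to p52, which pairs with RELB. Nfkbia and Tnfaip3, which encodes the ubiquitin-editing enzyme A20, are induced by NF-κB and restrain it, and Nfkb2, Relb, Rel and Nfkb1 are themselves known NF-κB targets. Il1b and Tnf encode inflammatory cytokines that are both products and activators of the pathway, made in the brain mainly by microglia. In the hippocampus, NF-κB subunits are also present in neurons, where they have been linked to synaptic plasticity and memory.

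The NF-κB consensus, a site of 10 bases, was searched on both strands in RefSeq promoter windows (GRCm38.p6) reaching from 250 bases before to 50 bases after each transcription start. The pattern was GGGRNNYYCC, where R is A or G, Y is C or T and N is any base. Windows were at hand for 7 of the 9 genes, not for Nfkb1 or Relb. A match was present for Nfkb2, Rel, Nfkbia and Tnfaip3, in 6 of the 10 windows of the 7 genes, and none for Rela, Il1b or Tnf. Over all 32851 windows, 8.46% held a match. Positions count from the first transcribed base as 1, with negative positions before it. Nfkb2 had 3 annotated starts. Its first window held overlapping matches from -39 to -29 and a match from -11 to -2, its second held matches at -236 to -227 and at 11 to 20, and the third held, at -225 to -216, the same site that the second held after its start. The matches lay at -92 to -82 in Rel, at -29 to -20 in Nfkbia, and at -125 to -116 and -12 to -3 in Tnfaip3. A match is a run of letters, and binding was not measured. Sites that depart from the pattern or lie outside the windows were not searched for. The 130 bases before the start are printed for the 4 genes of the pathway core that hold a match there, 5′ to 3′ on the gene's strand, with the matches in capitals. They lie at chr19:46304607-46304736 (plus strand) for Nfkb2, chr11:23770970-23771099 (minus strand) for Rel, chr12:55492648-55492777 (minus strand) for Nfkbia and chr10:19015411-19015540 (minus strand) for Tnfaip3. In GENCODE the Nfkb2 and Tnfaip3 stretches lie within the annotated gene, after its outermost start, and those of Rel and Nfkbia lie at or just before it.
Nfkb2: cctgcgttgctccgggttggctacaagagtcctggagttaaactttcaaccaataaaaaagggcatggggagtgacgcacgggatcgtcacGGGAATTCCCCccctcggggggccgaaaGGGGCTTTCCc
Rel: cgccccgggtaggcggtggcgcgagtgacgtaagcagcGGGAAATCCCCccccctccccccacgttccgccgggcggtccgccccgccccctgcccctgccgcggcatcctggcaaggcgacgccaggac
Nfkbia: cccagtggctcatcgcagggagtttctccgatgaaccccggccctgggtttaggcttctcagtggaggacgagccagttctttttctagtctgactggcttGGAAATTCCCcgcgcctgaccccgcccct
Tnfaip3: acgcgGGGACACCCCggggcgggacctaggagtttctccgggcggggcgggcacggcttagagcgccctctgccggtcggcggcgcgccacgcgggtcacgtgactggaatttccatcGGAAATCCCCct

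**Figure D1:**
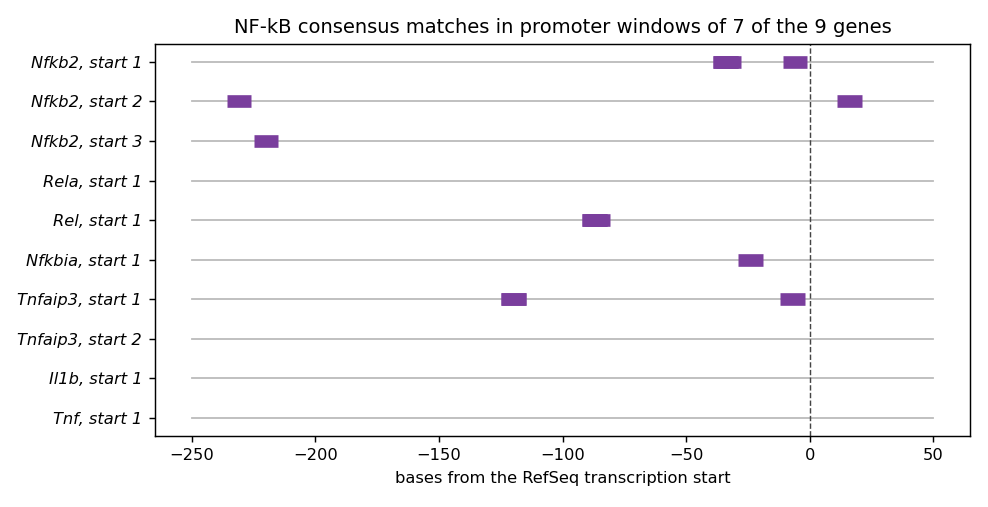
NF-κB consensus matches (purple) in the RefSeq promoter windows of 7 of the 9 genes, 1 row per annotated start, by distance in bases from the transcription start (dashed line). Matches are seen in 6 of the 10 windows, those of Nfkb2 (all 3 starts), Rel, Nfkbia and the first start of Tnfaip3.

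RPKM is scaled to exon length, so the 9 genes can be ranked. The mean over the 4 samples was 9.58 RPKM for Nfkbia, 7.91 for Rela, 4.46 for Nfkb1, 1.73 for Relb, 1.25 for Tnfaip3, 1.06 for Nfkb2, 0.533 for Rel, 0.116 for Il1b and 0.0346 for Tnf. Among the genes tested, Nfkbia stood at the 64.3rd percentile of mean level, Rela at the 58.8th and Rel at the 3.5th. The mean RNA levels of the canonical subunit genes Rela and Nfkb1 were thus each above those of the non-canonical Relb and Nfkb2. Protein and dimer levels were not measured. The ranges over samples overlapped between Relb and Tnfaip3, between Tnfaip3 and Nfkb2, and between Il1b and Tnf, and did not overlap between any other neighbours in this order. Relb was above Tnfaip3 in all 4 samples. Tnfaip3 was above Nfkb2 in both WT samples and below it in both KI samples.

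**Figure D2:**
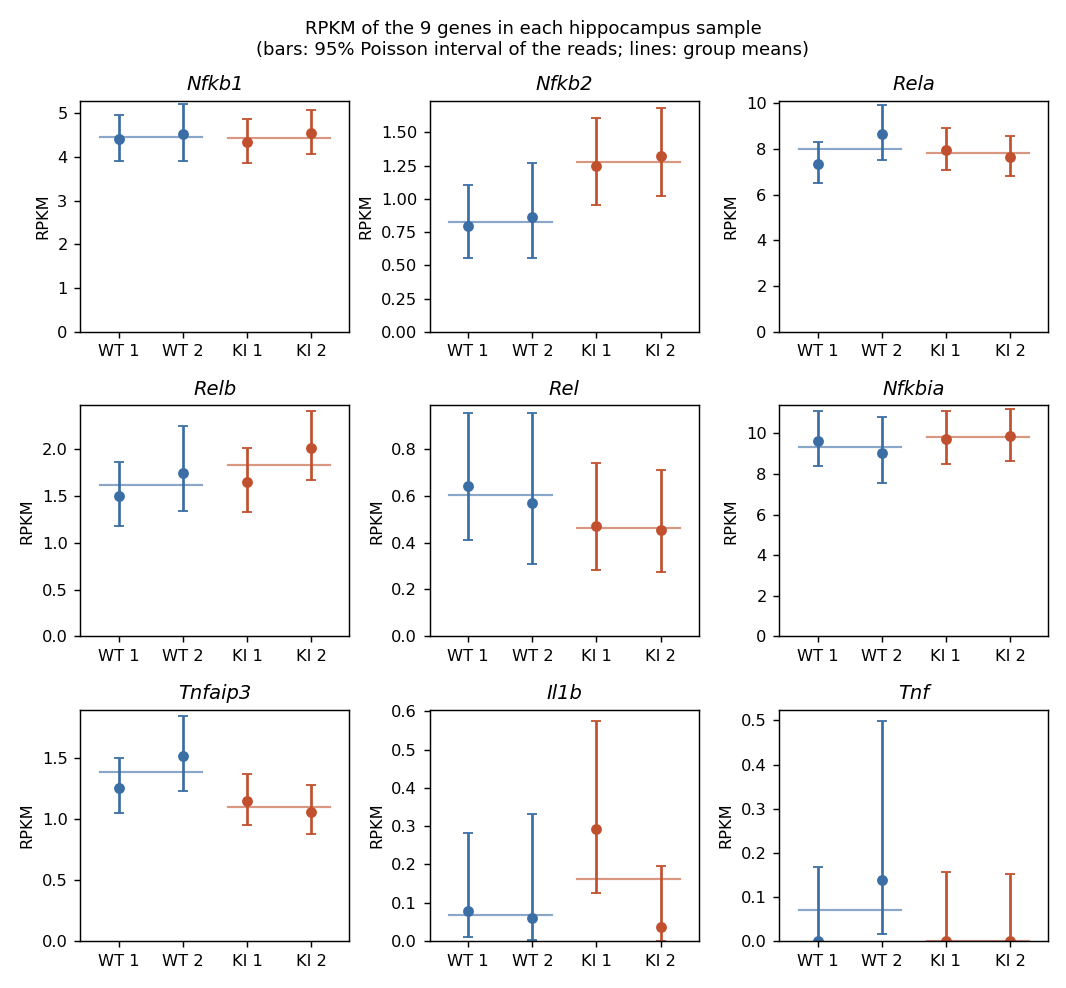
RPKM of each of the 9 genes in WT 1, WT 2, KI 1 and KI 2 (points), with the 95% Poisson interval of the recovered reads (bars) and the group means (horizontal lines), each panel on its own linear axis from 0. Nfkb2 lies at 0.793 and 0.861 RPKM in WT and at 1.25 and 1.32 RPKM in KI, with overlapping counting intervals, while Nfkb1 and Rela show no separation of the groups.

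KI was compared with WT by limma on log2(RPKM + 1) over 18436 genes. A fold change on this scale understates the change of genes with low RPKM. A gene was called at an adjusted p under 0.1 and at least 1.2-fold, and 0 genes were called, 0% of those tested. The smallest adjusted p over all genes was 0.197, and 1774 genes (9.62%) had an unadjusted p under 0.05. None of the 7 tested NF-κB genes was called, and 1 of them, Nfkb2, had an unadjusted p under 0.05. Both KI samples were above both WT samples for Nfkb2 and Nfkbia, 2 of 7 beside 24.0% of all genes tested. Both were below for Rel and Tnfaip3, beside 18.1% of all genes. Rel was tested only because its WT samples, the high ones, passed the filter, so its place in that count followed from its direction. Under quantile normalization 1 of the 7 genes was above and 3 were below, beside 19.2% and 22.9% of all genes. These counts describe the genes and are no result about them. With 2 samples in each group an exact two-sided permutation test cannot give a p below 0.333.

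**Figure D3:**
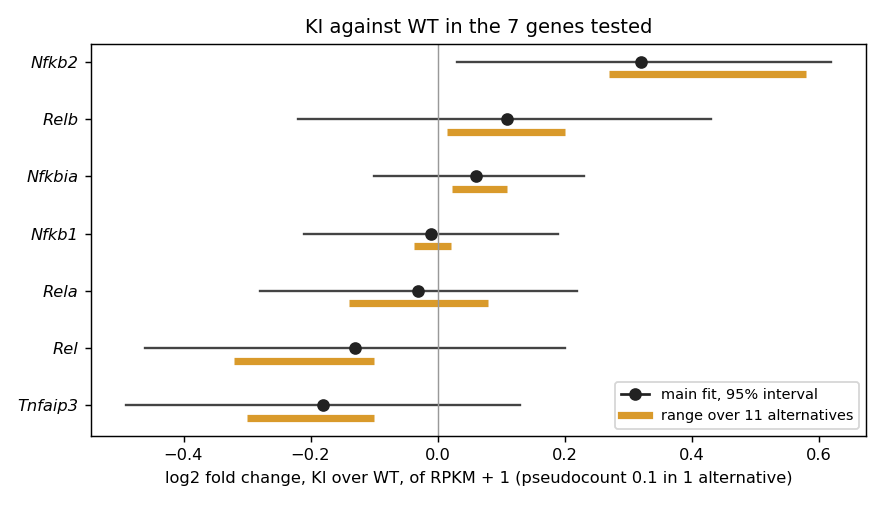
Log2 fold change of RPKM + 1, KI over WT, for the 7 genes tested. Points and thin lines are the limma estimate with its 95% interval and thick bars the range over 11 alternative settings. The interval of Nfkb2, 0.03 to 0.62, lies above 0, and those of the other 6 genes include 0.

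Among the subunits of the non-canonical route, Nfkb2 (ENSMUSG00000025225, chr19:46304320-46312385, plus strand) measured 0.793 and 0.861 RPKM in WT, and 1.25 and 1.32 in KI. The KI samples were the high ones and the groups did not overlap. The means of 0.827 ± 0.0479 RPKM for WT and 1.28 ± 0.0527 RPKM for KI (SD, n = 2 each) gave a ratio of 1.55. The log2 fold change was 0.32 ± 0.11 (SE), with a 95% interval of 0.03 to 0.62, an unadjusted p of 0.0374 and an adjusted p of 0.493 (limma), so the difference did not pass the test after adjustment. An exact permutation test gave 0.333, the smallest p the design allows. These values rest on few reads, 59 and 65 for KI beside 35 and 25 for WT. The 95% Poisson intervals, which cover counting error only, were 0.553 to 1.1 and 0.557 to 1.27 RPKM in WT and 0.950 to 1.61 and 1.02 to 1.68 RPKM in KI, and they overlapped between the groups. With a pseudocount of 0.1 in place of 1 the log2 fold change was 0.58. When 1 sample was left out the log2 fold change was 0.3 to 0.35. The unadjusted limma p was 0.0683 with the replicate number as a block, 0.0638 after quantile normalization and 0.0539 with a mean of at least 1 RPKM. It was 0.0407 with median ratio scaling, 0.0388 with a pseudocount of 0.1, 0.0296 with no filter and 0.00803 without the mean-variance trend. The limma adjusted p was at least 0.4 in each of these.

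The 3′ end of Nfkb2 overlaps Psd, a guanine nucleotide exchange factor gene on the opposite strand, over 299 exon bases. Psd was at 124 and 134 RPKM in WT, and 125 and 133 in KI, and its level over the shared bases corresponds to 497, 355, 537 and 593 reads in WT 1, WT 2, KI 1 and KI 2. Those figures exceed all the reads listed for Nfkb2 in the same samples. The sources used here do not say whether the library kept strand or how reads in shared bases were assigned, and the part of Psd reads in the Nfkb2 value was not tested. In a bulk sample, a change in the number of cells of a type and a change in RNA per cell cannot be told apart. The 8 microglial markers summed to 103 and 101 RPKM in WT, and 110 and 102 in KI, and the 6 endothelial markers to 36.8 and 42.2 RPKM in WT, and 41.0 and 41.1 in KI, and the groups overlapped in both lists. The hippocampal marker sum, and Prox1 and C1ql2 within it, were lower in both KI samples, and their part in the Nfkb2 difference was not tested.

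Relb (ENSMUSG00000002983, chr7:19606217-19629438, minus strand), the usual partner of p52, measured 1.5 and 1.75 RPKM in WT, and 1.65 and 2.01 in KI. KI 1 lay between the WT samples. The means were 1.62 ± 0.179 and 1.83 ± 0.260 RPKM (SD, n = 2 each), with a log2 fold change of 0.11 ± 0.12 (SE) and a 95% interval of -0.22 to 0.43. The limma adjusted p was 0.814. The difference was within the spread between samples. Map3k14, which encodes NIK, the kinase upstream of p100 processing, was at 0.910 and 0.986 RPKM in WT, and 0.892 and 1.00 in KI, and the groups overlapped.

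Of the canonical subunits, Nfkb1 (ENSMUSG00000028163, chr3:135584655-135691547, minus strand) measured 4.41 and 4.53 RPKM in WT, and 4.34 and 4.55 in KI. The KI samples lay on either side of both WT samples. The log2 fold change was -0.01 ± 0.08 (SE), with a 95% interval of -0.21 to 0.19 and a limma adjusted p of 0.986, on 191 to 325 reads per sample. Rela (ENSMUSG00000024927, chr19:5637483-5648130, plus strand), the main transactivating subunit, measured 7.36 and 8.68 RPKM in WT, and 7.96 and 7.66 in KI. Here both KI samples lay between the WT samples. The log2 fold change was -0.03 ± 0.09 (SE), with a 95% interval of -0.28 to 0.22 and a limma adjusted p of 0.949. The sign of both values turned in alternatives that left out 1 sample, to 0.02 for Nfkb1 without KI 1 and 0.08 for Rela without WT 2.

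Rel (ENSMUSG00000020275, chr11:23736847-23770970, minus strand) encodes c-REL, a subunit best known from lymphocytes. It measured 0.639 and 0.567 RPKM in WT, and 0.472 and 0.454 in KI. The KI samples were the low ones, and the gene passed the filter only through its WT samples. The means were 0.603 ± 0.0513 and 0.463 ± 0.0127 RPKM (SD, n = 2 each), a ratio of 0.768. They came from 24 and 14 reads (WT) and from 19 reads in each KI sample. Its log2 value differed by -0.13 ± 0.13 (SE) between KI and WT, with a 95% interval of -0.46 to 0.20 and a limma adjusted p of 0.776. The counting intervals of all 4 samples overlapped, and the difference was not detectable at this depth.

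The log2 fold changes of the feedback genes had opposite signs, and neither passed the test. Nfkbia (ENSMUSG00000021025, chr12:55489410-55492647, minus strand) measured 9.64 and 9.05 RPKM in WT, and 9.74 and 9.88 in KI. The KI samples were above both WT samples by a margin smaller than the gap between the WT samples. On the log2 scale KI minus WT was 0.06 ± 0.06 (SE), with a 95% interval of -0.10 to 0.23 and a limma adjusted p of 0.784. After median ratio scaling or quantile normalization the groups overlapped.

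Tnfaip3 (ENSMUSG00000019850, chr10:19000910-19015657, minus strand) measured 1.26 and 1.52 RPKM in WT, and 1.15 and 1.06 in KI. The groups did not overlap, with KI below WT. The means were 1.39 ± 0.185 and 1.1 ± 0.0570 RPKM (SD, n = 2 each), a ratio of 0.795, on 97 to 122 reads per sample. The log2 fold change was -0.18 ± 0.12 (SE), with a 95% interval of -0.49 to 0.13, an unadjusted p of 0.191 and an adjusted p of 0.666 (limma). It did not pass the test.

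The cytokine genes were at the limit of detection and were not tested. Il1b (ENSMUSG00000027398, chr2:129364570-129371139, minus strand) measured 0.0782 and 0.0594 RPKM in WT, and 0.292 and 0.0351 in KI, from 2, 1, 8 and 1 reads. KI 1 stood above the other 3 samples, with a Poisson interval of 0.126 to 0.575 RPKM. That interval overlapped those of WT 1 (0.00947 to 0.282), WT 2 (0.0015 to 0.331) and KI 2 (0.000888 to 0.195). KI 2 lay below both WT samples. The groups therefore overlapped, and the high sample was 1 of 2. KI 1 also had the highest sum of the 3 choroid plexus markers, 58.9 RPKM beside 13.3 to 19.3 in the other samples, and of the 4 perivascular macrophage markers, 1.09 RPKM beside 0.560 to 0.771. All 4 macrophage markers were below 0.5 RPKM in every sample, and 1 of them, Cd163, was highest in WT 1 (0.299 RPKM, beside 0.263 in KI 1). The part of either marker list in the Il1b value was not tested.

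Il1bos, a gene antisense to Il1b, was at 0.075 and 0.038 RPKM in WT and at 0 and 0.0449 RPKM in KI. All these values are near the limit of detection, so its absence from KI 1 carries no information on Il1b. Tnf (ENSMUSG00000024401, chr17:35199381-35202007, minus strand) was listed in WT 2 alone, at 0.138 RPKM or 2 reads. It was at 0 in WT 1, KI 1 and KI 2, where a count of 0 allows up to 0.136, 0.127 and 0.122 RPKM (3 reads). No difference in Tnf was detectable at this depth.

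Ratios between the genes within a sample do not depend on how samples are scaled to each other. They were computed after the values had been seen and describe them. The ratio of Nfkb2 to Tnfaip3 was 0.630 and 0.566 in WT and 1.09 and 1.24 in KI, a log2 difference of 0.96, and the order of the pair was reversed between the groups. The ratio of Nfkb2 to Nfkb1 was 0.180 and 0.190 in WT and 0.288 and 0.291 in KI. Relative to its partner Relb, Nfkb2 was at 0.530 and 0.492 in WT and 0.758 and 0.656 in KI. Each of these separated the groups, and each gave the smallest exact permutation p of 0.333. These ratios share the Nfkb2 values, where KI was above WT. Tnfaip3 was below WT in both KI samples, so separation of its ratio to Nfkb2 followed from the values of both genes. Separation was not particular to Nfkb2, since 3 of the 6 ratios without it also separated the groups. It followed in the same way for Nfkbia to Tnfaip3, and Rel was tested only through its WT samples. The separations are thus no further result. The ratio of Nfkbia to Tnfaip3 was 7.66 and 5.95 in WT and 8.51 and 9.28 in KI, that of Relb to Rela was 0.203 and 0.202 in WT and 0.207 and 0.263 in KI, and that of Rel to Rela was 0.0869 and 0.0653 in WT and 0.0593 in both KI samples. The ratio of Rela to Nfkb1 was 1.67 and 1.92 in WT and 1.84 and 1.68 in KI, so the groups overlapped for the canonical pair.

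**Figure D4:**
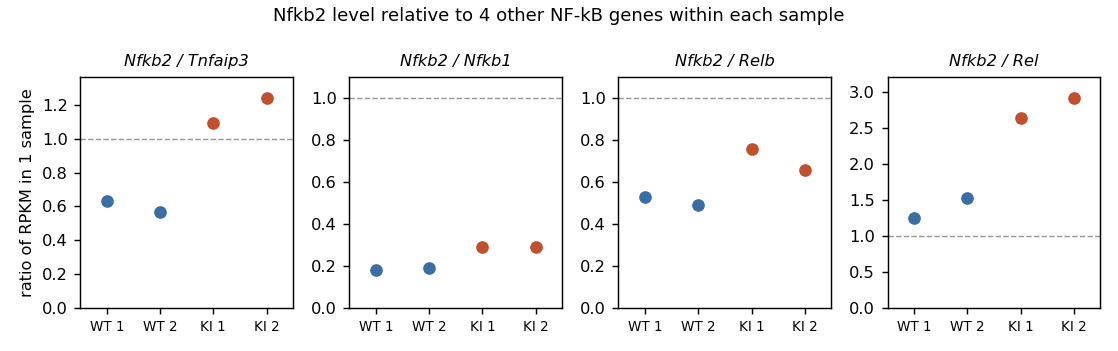
Ratio of Nfkb2 RPKM to that of Tnfaip3, Nfkb1, Relb and Rel within each sample (points), on linear axes from 0, with a dashed line at a ratio of 1. The KI samples lie above the WT samples in all 4 panels, and the ratio to Tnfaip3 crosses 1 between the groups. The counting intervals of Nfkb2 and Tnfaip3 overlap in each sample, so the reads do not resolve this crossing. All 4 ratios share the Nfkb2 values, and Rel passed the filter only through its WT samples.

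The 3 tested genes whose centred log2(RPKM + 1) profile over the 4 samples lay nearest to that of Nfkb2 were Mt1, which encodes a metallothionein, Tma7 and the ribosomal protein pseudogene Rpl13a-ps1. Their Euclidean distances were 0.031, 0.036 and 0.036, and 175 genes lay within 0.1. This nearness holds on the log2(RPKM + 1) scale, which understates the change of Nfkb2 at its low RPKM. The ratio of mean RPKM, KI over WT, was 1.55 for Nfkb2, beside 1.26 for Mt1, 1.27 for Tma7 and 1.28 for Rpl13a-ps1. Nearness to a profile chosen for its small p brings separation of the groups with it, so that separation is no further result. Mt1 was at 184 and 190 RPKM in WT, and 229 and 243 in KI. Tma7 was at 23.1 RPKM in both WT samples and 28.8 and 29.7 RPKM in KI. Reads of Rpl13a-ps1 may be shared with Rpl13a, so its value is uncertain. None of the 3 passed the test, with a limma adjusted p of 0.307 for Mt1 and Tma7 and 0.370 for Rpl13a-ps1.

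A wider list of 73 pathway genes placed the 9 genes in their context. Of these, 71 were listed in the files and 50 were tested, 0 of which were called. In this list 4 genes had an unadjusted p under 0.05, 12 had both KI samples above both WT samples and 9 both below, 24.0% and 18.0% of those tested. Over all genes 9.62% had such a p, 24.0% were above and 18.1% below, so the list stood near the background. The median log2 fold change was 0.01, that of all genes.

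Upstream of the subunits, 6 of 13 receptors and ligands were tested, with a median log2 fold change of -0.09. Tnfrsf1a, the main TNF receptor, was at 2.47 and 2.45 RPKM in WT, and 2.71 and 3.33 in KI (log2 fold change 0.21, adjusted p 0.598, limma). Il1r1, the signalling receptor for IL-1, was at 3.85 and 3.5 RPKM in WT, and 2.67 and 3.63 in KI, and the groups overlapped. Most ligands and Toll-like receptors on the list were below the filter.

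All 15 adaptors and kinases were tested, and their log2 fold changes ran from -0.14 to 0.20. Both KI samples were below both WT samples in 3 of them (20.0%, beside 18.1% of all genes) and above in 1 (6.67%, beside 24.0%). Irak4 and Irak1, kinases of the IL-1 and Toll-like receptor route, averaged 3.0 ± 0.0910 and 14.0 ± 0.342 RPKM for WT, beside 2.63 ± 0.0240 and 13.1 ± 0.186 RPKM for KI (SD, n = 2 each). Their log2 fold changes of -0.14 and -0.09 did not pass the test, with limma adjusted p values of 0.641 and 0.661.

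Of the IKK and related kinases, 4 of 5 were tested, and the log2 fold change was negative in all 4, from -0.13 to -0.01. Tbk1, an IKK-related kinase of innate immune signalling, was at 19.2 and 20.1 RPKM in WT, and 17.9 and 17.8 in KI. It had a log2 fold change of -0.13 ± 0.05 (SE) with a limma adjusted p of 0.522. Ikbkb, the catalytic IKK subunit of the canonical route, was at 3.54 and 3.59 RPKM in WT, and 3.39 in both KI samples. Both KI samples were below both WT samples in 3 of the 4 genes, beside 18.1% of all genes, and leaving out WT 2 or KI 2 turned the sign of 1 gene.

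The linear ubiquitin ligase subunits Rbck1 and Sharpin had log2 fold changes of -0.06 and -0.02, with limma adjusted p values of 0.760 and 0.964. Of the other inhibitors and co-regulators of the IκB family, Nfkbie averaged 1.04 ± 0.119 RPKM (WT) and 1.18 ± 0.0723 RPKM (KI), and Nfkbiz averaged 2.43 ± 0.115 and 2.52 ± 0.194 RPKM (SD, n = 2 each). Neither passed the test. Among 7 tested negative regulators, Tnip2, which encodes an A20-binding protein, was at 12.0 RPKM in both WT samples and at 9.47 and 11 RPKM in KI (log2 fold change -0.21, adjusted p 0.520, limma). Rnf11, a part of the A20 complex, was at 40.7 and 39.8 RPKM in WT, and 41.0 and 42.5 in KI.

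Known NF-κB target genes had the widest range. Of 24 listed, 22 were in the files and 11 were tested. Both KI samples were above both WT samples in 7 of the 11 and below in 0, beside 24.0% and 18.1% of all genes. Their log2 fold changes ran from 0.02 to 1.86, and 4 had an unadjusted p under 0.05, beside 9.62% of all genes. The value of 1.86 is that of Lcn2, which passed the filter only through the KI samples, where it is high. None passed the test after adjustment. Icam1 and Lcn2 are on a list that the study chose from these same samples, so their direction is no independent evidence. Without them 9 targets were tested, of which 5 had both KI samples above and 0 below and 2 had an unadjusted p under 0.05, with a median log2 fold change of 0.06. After quantile normalization 10 of the 11 were positive and 7 lay above, beside 19.2% of all genes. With 1 sample left out 9 or 10 were positive.

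Icam1, which encodes a leukocyte adhesion molecule of endothelium and glia, was at 0.646 and 0.758 RPKM in WT, and 1.34 and 1.58 in KI, from 22, 17, 49 and 60 reads. Its log2 fold change was 0.53 ± 0.12 (SE), with a limma adjusted p of 0.399. Lcn2, which encodes the secreted lipocalin-2, was at 0.0324 and 0.0492 RPKM in WT, and 1.87 and 3.98 in KI. It rested on 1 read in each WT sample and on 62 and 137 reads in KI. The ratio of its read rates, pooled over the samples of each group, was 75.5, with a 95% Clopper-Pearson counting interval of 20.6 to 627. That interval covers counting error only, not the spread between samples, and is no test of genotype. The limma adjusted p was 0.307.

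Ier3, an immediate early gene, was at 2.77 and 2.7 RPKM in WT, and 4.06 and 4.91 in KI. The log2 fold change was 0.55 ± 0.11 (SE), with an unadjusted p of 0.00483 and an adjusted p of 0.353 (limma). Gadd45b, a stress-response gene named here after its values were seen, was at 5.53 and 4.56 RPKM in WT, and 7.41 and 6.71 in KI, with a limma adjusted p of 0.436. Of these 4 targets, Ier3 held 1 consensus match in its promoter window, at -92 to -83, and Icam1, Lcn2 and Gadd45b held none. The Ier3 stretch, chr17:35821583-35821712 (plus strand, GRCm38.p6), is printed in the same way as those of the subunit and feedback genes.
Ier3: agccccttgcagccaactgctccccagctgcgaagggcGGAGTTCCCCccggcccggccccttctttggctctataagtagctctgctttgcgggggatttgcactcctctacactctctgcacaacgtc
In the endothelial list, 3 of 6 markers had both KI samples above both WT samples and 1 both below. In the microglial list 3 of 8 were above and 1 below. Over all genes 24.0% were above and 18.1% below. None of these markers was at 0. Their part in the target gene values was not tested.

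**Figure D5:**
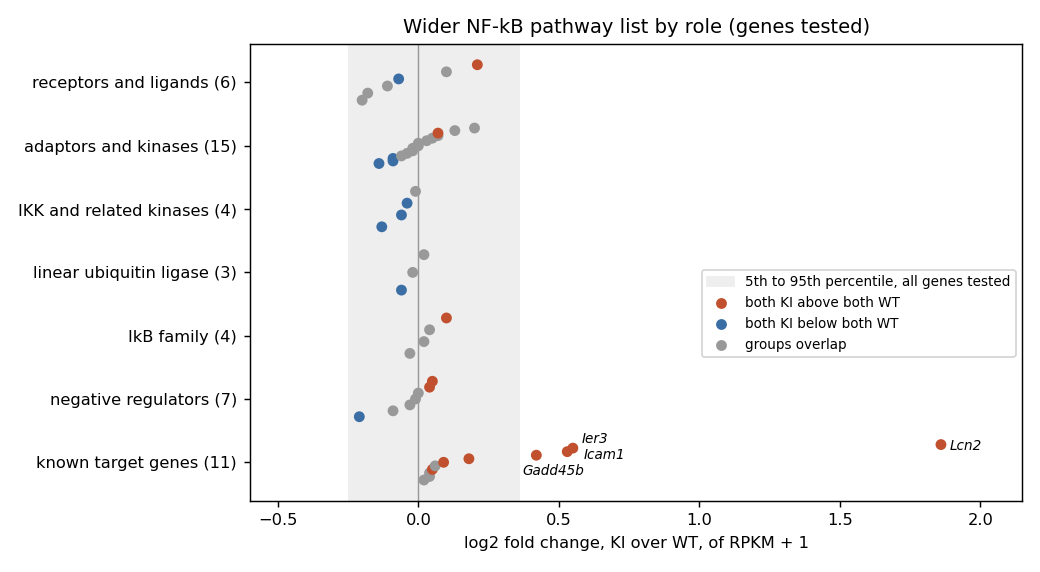
Log2 fold change of RPKM + 1, KI over WT, for the 50 tested genes of the wider pathway list (points), grouped by role with the number tested in brackets, beside the 5th to 95th percentile of all genes tested (grey band, -0.25 to 0.36). Lcn2, Ier3, Icam1 and Gadd45b lie to the right of the band, and no other gene on the list lies outside it.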

How the data were processed

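RNA-seq of hippocampal poly(A) RNA was analysed in 2 samples from WT and 2 from Lsd1 KI mice. The authors aligned read pairs to mm10 with GSNAP, kept unique proper pairs, and deposited RPKM values for the genes of Ensembl release 74, 1 file per sample, without pooling. Strandedness and the counting tool are not given in the sources used here. A gene absent from a file was given 0. Values were compared as log2(RPKM + 1) with limma 3.58.1 (R 4.3.3, mean-variance trend, genotype as the only term, Benjamini-Hochberg over 18436 genes). The study's own tool, edgeR, needs counts and was not used for RPKM. The remaining steps used scipy 1.17.1, numpy 2.4.6 and pandas 2.3.3 under Python 3.11.15, and the limma code was tested on simulated data. The labels number the replicates without saying how each was taken, so p-values measure only the spread between these samples, which may be technical.

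Whole reads within 0.02 were recovered with GENCODE M21 exon lengths for 15929 of 25729 genes with a symbol, and served for depth and for 95% Poisson intervals only. Where the annotated length gave no whole reads within 0.01, the shortest length that did was used, so reads are fixed up to a common multiple. Gene positions are from GENCODE M21 (GRCm38, the build of mm10) and promoters from RefSeq (GRCm38.p6). The genes and lists were chosen with earlier results of these data known. Named genes are the 9 genes, in each role of the wider list the 2 with the smallest unadjusted p, any gene called, Icam1, the 3 genes nearest in profile to the subunit or feedback gene with the smallest p, and Kdm1a. Map3k14, Gadd45b and the low targets given last were added for context. Same-numbered samples did not deviate together (correlation -0.025), so numbers were not taken as pairs. Alternatives were the pseudocount, filter, scaling, trend, replicate block, leaving out each sample, and stricter thresholds.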

Additional observations from a re-analysis of the deposited data

How the results depend on the processing

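Across 11 alternatives, 241 log2 fold changes of 22 named genes were recomputed. None passed the threshold, and 7 changed sign. The 0 called genes became 20 without the mean-variance trend, none of them among the NF-κB genes or the wider list, and stayed 0 under the other alternatives, the replicate block (0 called, smallest adjusted p 0.359) and both stricter thresholds included. Of the 9 genes, the number with both KI samples above went from 2 to 1 with median ratio scaling and 1 with quantile normalization, and ranged from 2 to 4 with 1 sample left out. Over all genes the share above was 20.9%, 19.2% and 37.9% to 39.6% in these settings, in the same order, beside 24.0% in the main fit. The number below went from 2 to 1 with a mean of at least 1 RPKM, since Rel was not tested. It was 3 with quantile normalization and ranged from 2 to 3 with 1 sample left out. Over all genes the share below was 18.7%, 22.9% and 30.5% to 33.8% in these settings, in the same order, beside 18.1% in the main fit. Sign changes, with the range when 1 sample was left out, were Nfkb1 (0.007 without WT 2 and 0.021 without KI 1, range -0.036 to 0.021, and -0.037 with quantile normalization), Rela (0.08 without WT 2, range -0.14 to 0.08), Sharpin (0.001 and 0.06, range -0.10 to 0.06) and Nfkbiz (-0.001 with quantile normalization and -0.018 without KI 1, range -0.018 to 0.09), and their cause was not tested. Depth, 8830000 to 14950000 reads, leaves Nfkb2, Rel, Il1b and Tnf with few reads.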

Other observations

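Several pathway genes below the filter were not tested, and those named here were chosen after their values were seen. Both KI samples were above both WT samples for Birc3, which encodes an inhibitor of apoptosis (0.179 and 0.294 RPKM in WT, 0.430 and 0.507 in KI), and for Il1a, an IL-1 cytokine (0.189 and 0.230 RPKM in WT, 0.387 and 0.542 in KI). The same held for Bcl3, a co-regulator that binds p50 and p52 (0.0900 and 0.228 RPKM in WT, 0.448 and 0.296 in KI). Sele, which encodes E-selectin of activated endothelium, was listed at 0 in both WT samples and rested on 6 reads in each KI sample, and Ccl4 on 0 reads in WT and 1 and 2 in KI. The chemokine gene Ccl5 went the other way, from 0.155 and 0.354 RPKM in WT to 0.0724 and 0.0697 RPKM in KI, and Il6 had at most 1 read in any sample. Without any filter, both KI samples were above both WT samples in 10 of 22 listed targets and below in 1, beside 21.2% and 15.9% of all genes. Without Icam1 and Lcn2, which the study chose on these samples, these were 8 of 20 and 1.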
